A study of Mus musculus with 16 samples.

Results

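Interferons are cytokines that cells release on viral or inflammatory stimulation. They switch on interferon-stimulated genes through STAT and IRF transcription factors, and they raise the display of peptides on MHC class I molecules, by which cytotoxic T cells recognise infected cells. The transcripts of 9 mouse genes of this response were followed here in tibialis anterior, a fast hindlimb muscle. Irf7 encodes a transcription factor that amplifies interferon production. Isg15, Ifit1, Ifit3 and Bst2 encode antiviral effectors. B2m, H2-K1, H2-D1 and Tap1 serve MHC class I presentation. The genes were taken by symbol from the deposited table, which listed all 9 among its 14538 genes, and all 9 passed the minimum level for testing, as did 11841 genes in total.

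The muscles came from mice labelled C57BL/6 and WT, which were C57BL/6J males by the study's methods. All groups shared a NASH diet, high in fat and fructose, and housing at about 29 °C from 8 weeks of age, and the age at collection is not given in the sources used here. The Vehicle group had 5 mice. The GDF15 group had 6 mice injected subcutaneously once a day with recombinant GDF15, a stress-induced hormone that lowers food intake. The protocol lists doses, in nmol per kg, of 0.3, 1 and/or 5, and which of them these mice received is not given in the sources used here. The pair-fed group had 5 mice, numbered 2 to 6, that were offered the amount of food the GDF15 mice had eaten on the previous day. The design therefore asks what GDF15 changed in muscle beyond eating less. Each library is a single mouse, and p-values measure the spread between mice.

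All levels below are normalized counts, which were recovered from the deposited log2 values and are scaled to the same effective depth in every library. Each library held about 9482763 to 15012378 reads by an estimate from the steps between low values. Mice of the same group correlated at 0.978 to 0.986 over all tested genes, and no library stood apart as a copy of another. The 10 myofibre markers checked, among them Acta1 and Ckm, were all listed and took 17.3% to 19.8% of the normalized counts, so that the tissue carried its defining transcripts. Lymphocyte and natural killer cell markers were near 0: 5 of 14 were listed, none reached the minimum level, and their sum reached at most 15.08 normalized counts in a mouse. Bulk tissue was measured, so fewer cells of a type and less RNA per cell cannot be told apart.

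None of the 9 genes passed the thresholds in any of the 3 comparisons, and the groups overlapped for every gene. The largest difference was that of Ifit1, 1.40-fold higher in GDF15 than in vehicle mice, and the smallest p was that of B2m, 1.16-fold higher in GDF15 than in pair-fed mice, and neither passed. Between mice of the same group, the 4 MHC class I genes varied together.

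Interferon-stimulated genes are known to carry short control elements close to the start of transcription. Promoter windows of 300 bases (250 before to 50 after the annotated start, RefSeq, build GRCm38.p6) were available for all 9 genes, and 3 motifs were searched on both strands. The core of the interferon-stimulated response element, read here as GAAA, 2 bases of any kind and GAAA, was present in 5 of the 9 windows (Isg15, Ifit1, Ifit3, Bst2 and B2m) and in 3.44% of the 32851 promoter windows of the same length. A kappa B like motif, GGGNNTTCC, was present in Bst2, H2-K1 and H2-D1 and in 5.82% of all windows. The interferon-gamma activated site, TTCNNNGAA, was present in Bst2 and in 8.3% of all windows. A match is a description of the letters, and binding was not measured in these mice. No match to the 3 motifs lay in the windows of Irf7 and Tap1, which says only that these letters are absent from them. The same holds for any gene without a match to a given motif, since variants of the letters were not searched.

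The stretches that hold the matches are printed to show the letters of these elements in the genes measured. Each is a run of 125 bases, 5′ to 3′ on the gene's own strand, that ends 51 bases before the start, and the capitals mark the response element core in the first 5 and the kappa B like motif in the last 2.
Isg15 (chr4:156200869-156200993, minus strand): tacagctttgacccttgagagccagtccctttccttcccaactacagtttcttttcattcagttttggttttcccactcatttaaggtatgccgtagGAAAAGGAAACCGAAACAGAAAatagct
Ifit1 (chr19:34640714-34640838, plus strand): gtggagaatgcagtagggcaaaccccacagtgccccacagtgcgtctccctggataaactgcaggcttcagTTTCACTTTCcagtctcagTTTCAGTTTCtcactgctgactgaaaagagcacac
Ifit3 (chr19:34583354-34583478, plus strand): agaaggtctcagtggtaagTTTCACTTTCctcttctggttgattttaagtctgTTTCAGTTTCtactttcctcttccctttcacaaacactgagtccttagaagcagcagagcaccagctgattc
Bst2 (chr8:71537523-71537647, minus strand): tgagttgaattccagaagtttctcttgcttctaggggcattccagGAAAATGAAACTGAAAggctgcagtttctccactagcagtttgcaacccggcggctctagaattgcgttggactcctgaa
B2m (chr2:122147512-122147636, plus strand): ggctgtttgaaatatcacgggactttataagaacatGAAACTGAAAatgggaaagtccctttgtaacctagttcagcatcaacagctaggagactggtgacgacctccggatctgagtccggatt
H2-K1 (chr17:34000398-34000522, minus strand): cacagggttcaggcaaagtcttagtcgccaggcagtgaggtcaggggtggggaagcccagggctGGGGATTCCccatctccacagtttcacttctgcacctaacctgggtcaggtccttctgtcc
H2-D1 (chr17:35262919-35263043, plus strand): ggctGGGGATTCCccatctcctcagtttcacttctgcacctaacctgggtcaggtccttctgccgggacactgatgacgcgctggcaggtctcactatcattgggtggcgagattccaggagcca

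In Isg15, 3 overlapping copies of the core ran from -78 to -57, and in Bst2 2 overlapping copies ran from -130 to -115. Ifit1 and Ifit3 each held 2 copies on the opposite strand, so that the printed letters are the reverse complement. The TTCNNNGAA match of Bst2, from -136 to -128, overlapped both its GGGNNTTCC match and its first core. H2-K1 has 2 annotated starts, of which the upstream one is shown.

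**Figure D1:**
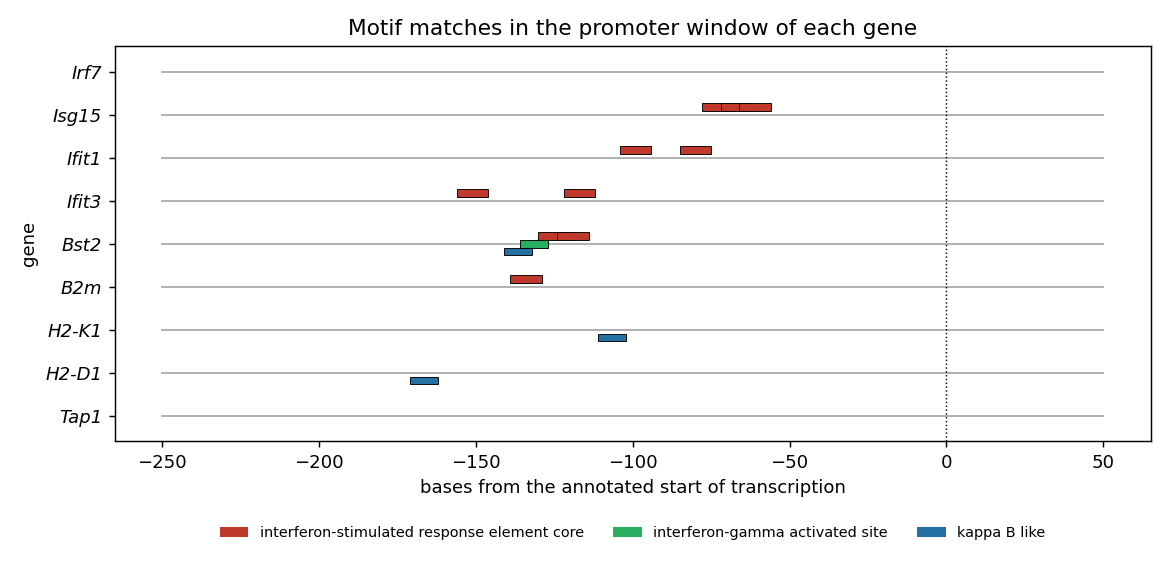
Positions of the 3 searched motifs (coloured boxes) in the promoter window of each gene, in bases from the annotated start of transcription, with 1 grey line per gene. The response element core lies between -156 and -57 in 5 genes, and the kappa B like motif lies between -171 and -103 in Bst2, H2-K1 and H2-D1.

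The genes differed widely in level. Per kilobase of transcript (median transcript length), vehicle means were 2635 normalized counts for H2-D1, 1121 for B2m and 1027 for H2-K1, the heavy and light chains of MHC class I. The restriction factor Bst2 followed at 113, and the other genes lay lower, at 37.8 for Ifit3, 32.3 for Irf7, 23.6 for Tap1, 19.4 for Isg15 and 10.5 for Ifit1. Neighbours in this order overlapped between vehicle mice for B2m and H2-K1, for Ifit3 and Irf7, for Irf7 and Tap1, and for Tap1 and Isg15. Over all 16 mice, 96.7% of the tested genes with a known length lay below H2-D1 per kilobase, 53.6% lay below Bst2 and 12.1% lay below Ifit1. The first place of H2-D1 depended on the transcript length used: with its longest transcript (2102 bases in place of 406) its vehicle mean was 509 per kilobase, below B2m and below the 621 of H2-K1.

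Irf7 (chromosome 7, 141262706 to 141266481 in GRCm38) was measured at 40.2, 80.2, 45.8, 56.9 and 74.1 normalized counts in the 5 vehicle mice. The GDF15 mice spanned 50.1 to 76.5 with a median of 59.5, and the pair-fed mice gave 58.9, 68.1, 59.1, 70.4 and 43.4. The ranges of the 3 groups overlapped, and the lowest and the highest value were both from vehicle mice. The log2 fold change was 0.07 ± 0.19 (SE) for GDF15 against vehicle, 0.04 ± 0.19 for pair-fed against vehicle and 0.03 ± 0.19 for GDF15 against pair-fed. Its 95% intervals stayed within 0.6 in size in all 3 comparisons. Exons of Irf7 overlap those of Phrf1 on the opposite strand, and whether the authors' quantification used strand is not given in the sources used here.

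Isg15 (chromosome 4, 156199424 to 156200818), a ubiquitin-like protein that is conjugated to other proteins, was the gene with the widest range, 3.96-fold between the lowest and the highest mouse. Vehicle mice had 17.5, 14.7, 16.9, 11.7 and 12.6 normalized counts, GDF15 mice 6.56 to 26.0 with a median of 15.8, and pair-fed mice 19.9, 16.2, 18.6, 6.78 and 13.6. The extremes corresponded to about 7 and 23 reads, so that counting error was large. Vehicle values lay inside the range of the GDF15 group. All 3 log2 fold changes were between -0.03 and 0.03, and their intervals reached from -0.73 to 0.69, so changes of 0.6 in either direction lay within them.

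Ifit1 (chromosome 19, 34640871 to 34650009), an antiviral protein that binds foreign RNA, had the largest difference among the 9 genes. Its values were 18.3, 33.9, 18.7, 32.6 and 36.0 in vehicle mice, 26.7 to 54.3 with a median of 37.9 in GDF15 mice, and 36.2, 32.5, 36.9, 34.4 and 31.3 in pair-fed mice. Of the 6 GDF15 mice, 4 lay above the vehicle median, and the ranges overlapped. The log2 fold change for GDF15 against vehicle was 0.49 ± 0.22 (95% interval 0.02 to 0.95), and limma's adjusted p was 0.417. Against vehicle the pair-fed mice differed by 0.34 ± 0.23, and GDF15 differed from pair-fed by 0.14 ± 0.22. With each mouse left out these ran from 0.21 to 0.45 and from 0.043 to 0.24, lowest without vehicle mouse 1 and GDF15 mouse 6. The pair-fed mice were the most alike, with an SD of 2.38 around 34.3, against 8.66 around 27.9 in vehicle mice.

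Ifit3 (chromosome 19, 34583531 to 34588731), which acts with Ifit1, was measured at 54.2, 68.4, 56.1, 70.0 and 81.2 in vehicle mice. GDF15 mice ran from 38.8 to 101 with a median of 64.0, and pair-fed mice had 73.8, 83.2, 57.7, 61.4 and 81.1. The GDF15 group held both the lowest and the highest mouse. Log2 fold changes were -0.02 ± 0.19 for GDF15 against vehicle, 0.11 ± 0.20 for pair-fed against vehicle and -0.13 ± 0.19 for GDF15 against pair-fed. Ifit3 is uncertain as a single gene, since 51.2% of its 50-base stretches occur also in its near-copy Ifit3b, which was listed at 123 ± 18.1 in vehicle mice, 117 ± 18.6 in GDF15 mice and 122 ± 18.5 in pair-fed mice.

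Bst2 (chromosome 8, 71534255 to 71537456), tetherin, holds budding virus particles at the cell surface. It was 83.7, 95.8, 93.5, 78.8 and 95.8 in vehicle mice, 69.9 to 99.7 with a median of 95.9 in GDF15 mice, and 103, 108, 80.4, 84.1 and 92.2 in pair-fed mice. Group means were 89.5 ± 7.79, 88.7 ± 13.4 and 93.5 ± 11.8 (SD, n = 5, 6 and 5). This was the steadiest of the 5 interferon response genes, and its log2 fold changes were -0.02 ± 0.12, 0.06 ± 0.13 and -0.08 ± 0.12 in the same order of comparisons.

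**Figure D2:**
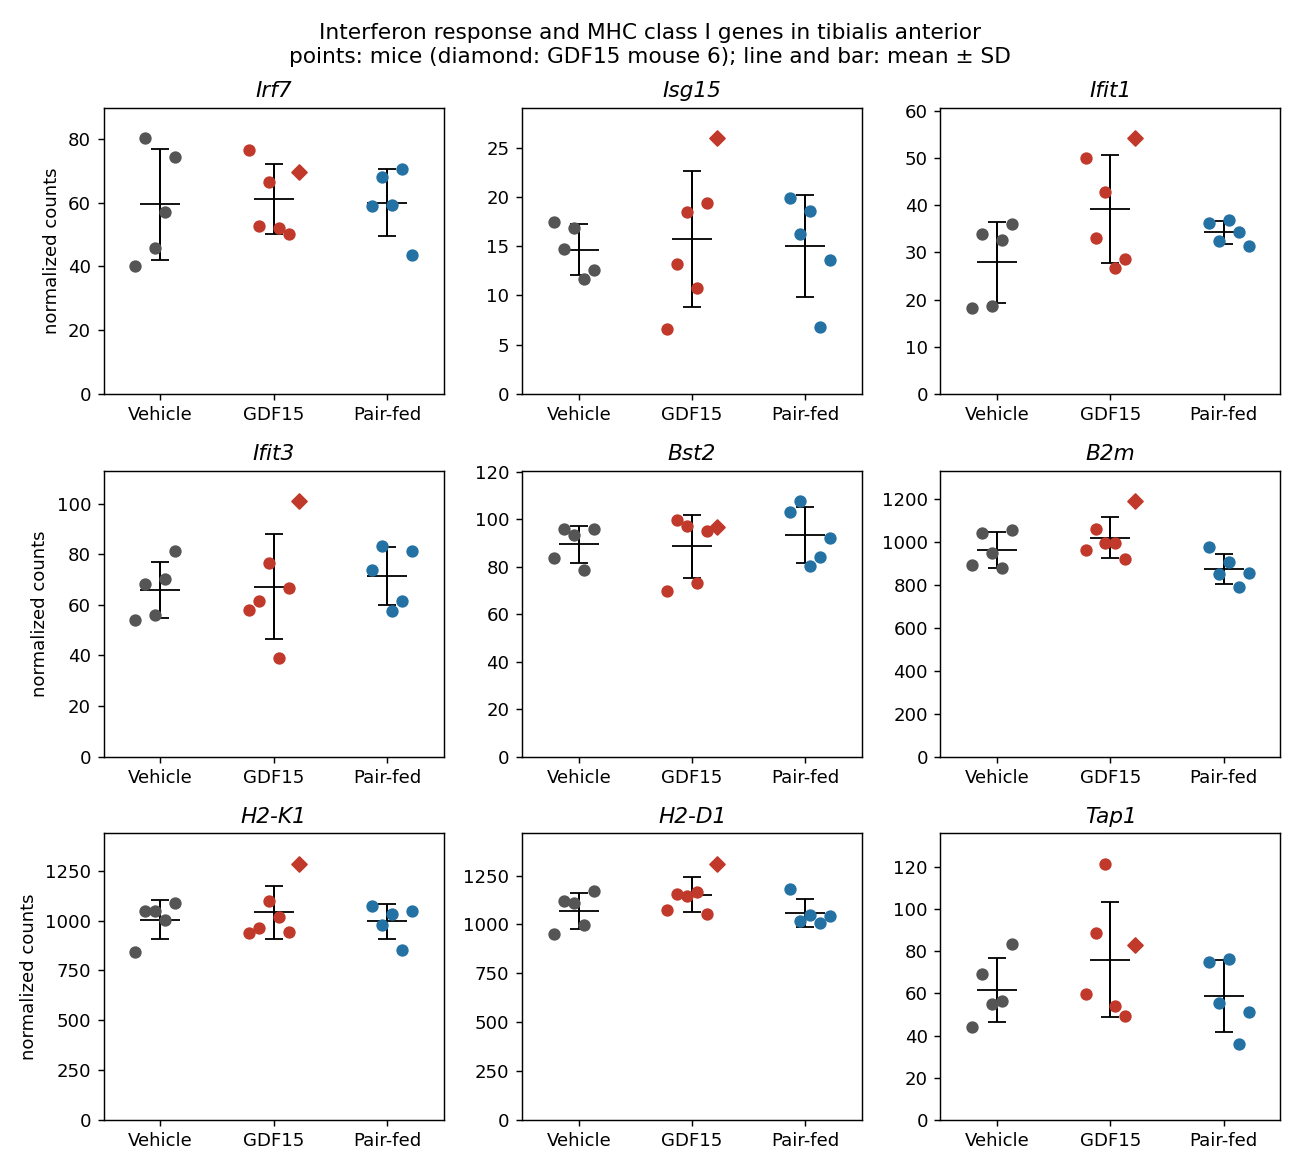
Normalized counts of the 9 genes (vertical axes, each from 0) in the single mice of the Vehicle, GDF15 and pair-fed groups, with mean ± SD. The groups overlap in every panel, and GDF15 mouse 6 (diamond) is the highest of the 16 mice for 6 genes, for example at 26.0 for Isg15 and 1283 for H2-K1.

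B2m (chromosome 2, 122147686 to 122153083) encodes the light chain shared by all MHC class I molecules. Vehicle mice had 892, 1042, 951, 877 and 1057 normalized counts, GDF15 mice 920 to 1190 with a median of 996, and pair-fed mice 976, 851, 908, 790 and 854. All 6 GDF15 mice lay above the pair-fed median, and 1 pair-fed mouse, at 976, lay within the GDF15 range. GDF15 mice were 1.16-fold higher than pair-fed mice, with a log2 fold change of 0.22 ± 0.07 (95% interval 0.07 to 0.37) and a limma adjusted p of 0.165. This was the lowest adjusted p of any of the genes in any comparison, and it did not pass. Side by side, the difference was 0.08 ± 0.07 for GDF15 against vehicle and -0.14 ± 0.07 for pair-fed against vehicle (limma adjusted p = 0.33), comparisons that share the vehicle mice. With each mouse left out the first ran from 0.037, without GDF15 mouse 6, to 0.12, and the second from -0.18 to -0.10.

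H2-K1 (chromosome 17, 33996017 to 34000347) and H2-D1 (chromosome 17, 35262730 to 35267499) encode the classical heavy chains that hold the peptide. H2-K1 was 840, 1046, 1050, 1002 and 1087 in vehicle mice, 936 to 1283 with a median of 991 in GDF15 mice, and 1071, 978, 1035, 853 and 1049 in pair-fed mice. H2-D1 was 949, 1119, 1112, 998 and 1171 in vehicle mice, 1054 to 1308 with a median of 1150 in GDF15 mice, and 1181, 1015, 1048, 1009 and 1041 in pair-fed mice. For H2-D1 all 6 GDF15 mice lay above the pair-fed median, though 1 pair-fed mouse exceeded 5 of them. Log2 fold changes of H2-K1 were 0.05 ± 0.08, -0.01 ± 0.09 and 0.06 ± 0.08 for GDF15 against vehicle, pair-fed against vehicle and GDF15 against pair-fed. Those of H2-D1 were 0.11 ± 0.06, -0.01 ± 0.07 and 0.12 ± 0.06, with limma adjusted p of 0.574, 0.945 and 0.443. The intervals of these highly expressed genes were narrow, within -0.20 to 0.25 for all 6 values. The genes are similar in sequence: 8.79% of the 50-base stretches of H2-K1 and 14.3% of those of H2-D1 are shared with other genes of the family or elsewhere.

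Tap1 (chromosome 17, 34187553 to 34197225) encodes a subunit of the transporter that carries peptides into the endoplasmic reticulum. Its values were 44.2, 69.5, 55.1, 56.4 and 83.3 in vehicle mice, 49.4 to 122 with a median of 71.5 in GDF15 mice, and 75.1, 55.4, 76.6, 36.0 and 51.4 in pair-fed mice. The spread was wide in each group, and GDF15 mouse 3 alone stood above 100. The log2 fold change was 0.26 ± 0.24 against vehicle and 0.34 ± 0.24 against pair-fed for GDF15, and -0.08 ± 0.25 for pair-fed against vehicle. With each mouse left out the first fell as low as 0.11 (without GDF15 mouse 3) and the second as low as 0.18 (without pair-fed mouse 5). Exons of Tap1 overlap those of Psmb9 on the opposite strand.

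Across the 9 genes the comparisons gave the same outcome. A call needed both an adjusted p below 0.1 and a log2 difference larger than 0.6 either way. These limits follow the study's methods for this muscle. In GDF15 against vehicle 0 of 9 genes were called, where 0.304% of all tested genes were called. For pair-fed against vehicle the count was 0 of 9 beside 0.819%, and for GDF15 against pair-fed it was 0 of 9 beside 0.279%. At an unadjusted p under 0.05, limma gave 1 gene (Ifit1), 0 genes and 1 gene (B2m), where 11%, 18.9% and 13.2% of all tested genes passed. At an adjusted p below 0.1 alone the count was also 0 of 9 in each comparison, beside 0.769%, 6.37% and 2.17% of all tested genes. No gene had groups without overlap, beside 1.65%, 5.44% and 1.77% of all tested genes. At these background shares a count of 0 of 9 does not set the genes apart from other genes.

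The direction of the differences was mixed. The 9 genes were higher in 6, 4 and 7 cases in GDF15 against vehicle, pair-fed against vehicle and GDF15 against pair-fed, where 50.4%, 50.2% and 50.8% of all tested genes were higher. Their median log2 fold changes were 0.07, -0.01 and 0.06, beside medians at or below 0.0025 over all tested genes. In each comparison the 95% interval stayed within 0.6 in size for 6 of the 9 genes. For Isg15, Ifit1 and Tap1, the 3 genes of lowest level per kilobase, the interval reached past 0.6, so a change of that size lay within the interval.

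**Figure D3:**
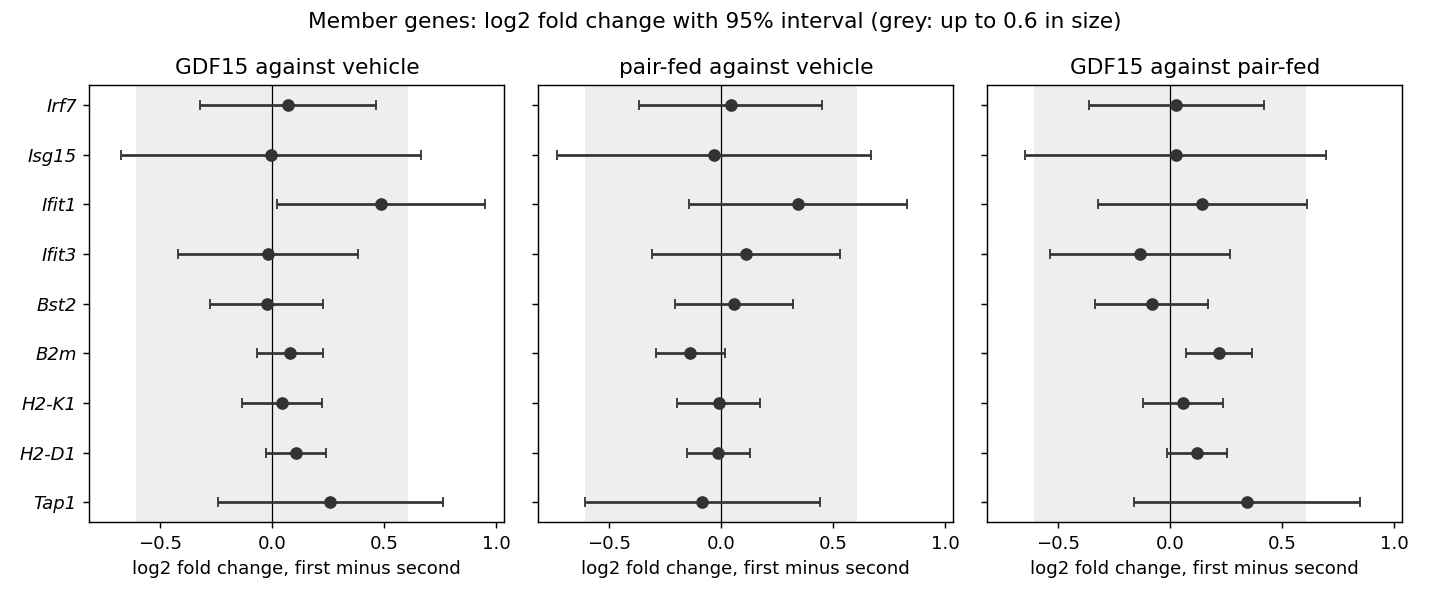
Log2 fold change (horizontal axis, group named first minus group named second) of the 9 genes with 95% intervals from limma, in the 3 comparisons. The grey band marks 0.6 in size. Intervals of the MHC class I chains are narrow, Isg15 has the widest, and B2m in GDF15 against pair-fed (0.07 to 0.37) is clear of 0 but did not pass the adjusted threshold.

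Between mice of the same group the genes did not vary independently. Each mouse was expressed as its deviation from the mean of its group, so that group differences were removed, and all 36 pairs of the 9 genes were correlated over the 16 mice. Of these pairs 34 had a positive Pearson r, and 9 passed an adjusted p of 0.1 in a permutation test within groups (100000 permutations, two-sided, adjusted over the 36 pairs). All 6 pairs among B2m, H2-K1, H2-D1 and Tap1 passed, with a median r of 0.74. B2m and H2-D1 gave r = 0.91 and rho = 0.93, with a permutation adjusted p of 0.00036, and r stayed at 0.85 without the 2 mice farthest from the median of B2m. H2-K1 correlated with H2-D1 at r = 0.83 (rho = 0.80) and with B2m at r = 0.78 (rho = 0.76), permutation adjusted p of 0.00036 and 0.00882. Tap1, expressed at a far lower level, followed at r = 0.70 (rho = 0.72) with B2m, 0.67 (rho = 0.70) with H2-K1 and 0.61 (rho = 0.61) with H2-D1, permutation adjusted p of 0.0381, 0.0592 and 0.0768. B2m shares no 50-base stretch with another gene, whereas 6.94% of those of H2-K1 occur in H2-D1.

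The interferon response genes were less uniform. Irf7 and Ifit1 were correlated at r = 0.82 and rho = 0.83 (permutation adjusted p = 0.00882), and at r = 0.78 without the 2 mice farthest from the median of Irf7. Ifit3 went with Bst2 at r = 0.65 (rho = 0.59) and with Ifit1 at r = 0.62 (rho = 0.62), each with a permutation adjusted p of 0.0768. Without the 2 farthest mice these relations stayed at r = 0.57 and 0.58 but no longer passed, with permutation adjusted p of 0.177 and 0.249. Irf7 and Isg15 gave r = -0.26 (rho = -0.22), permutation adjusted p = 0.331. In all, 3 of the 10 pairs within this set passed. Of the 20 pairs that join an interferon response gene to an MHC class I gene, none passed by r and all had a positive r, with a median of 0.45 and a range of 0.26 to 0.59. By rho, 1 of them passed, Ifit3 with H2-K1 (rho = 0.62, permutation adjusted p = 0.0907). For scale, r between a member and every other tested gene had a median near 0 and 90% of its values between about -0.47 and 0.47.

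**Figure D4:**
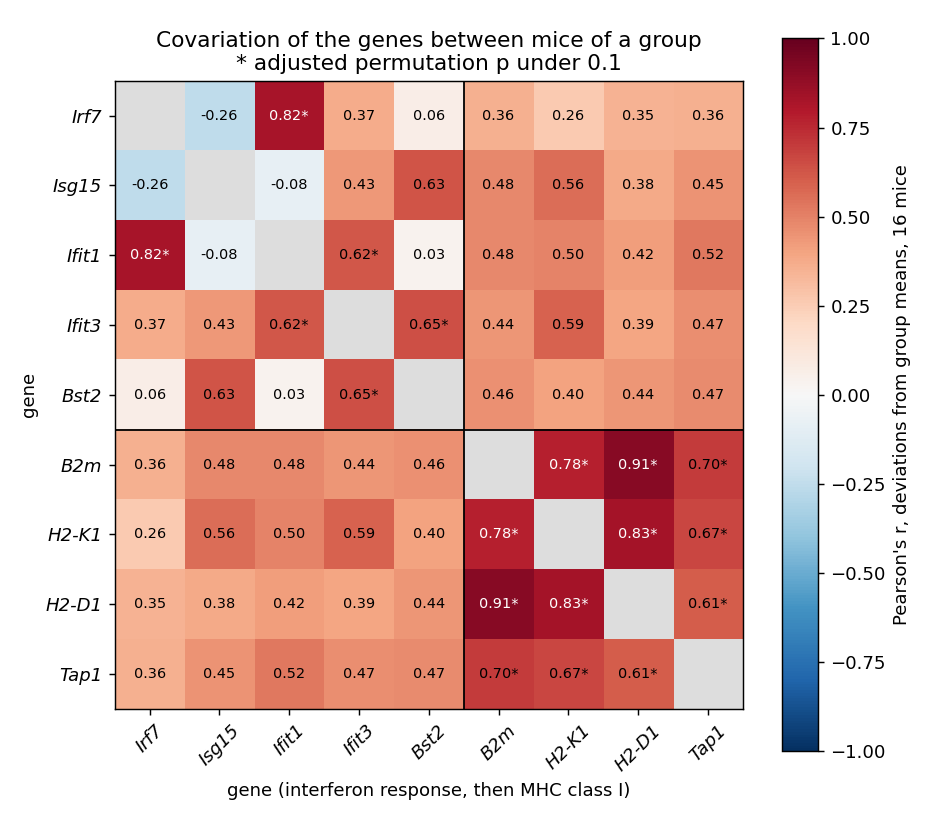
Pearson's r between the deviations of 16 mice from their group means, for each pair of genes (rows and columns, interferon response genes before MHC class I genes). Asterisks mark the 9 pairs with an adjusted permutation p under 0.1, which include the whole MHC class I block (0.61 to 0.91) and the pair of Irf7 and Ifit1 (0.82).

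Some mice stood at the end of the range for several genes. GDF15 mouse 6 was the highest of the 16 for 6 of the 9 genes (Isg15, Ifit1, Ifit3, B2m, H2-K1 and H2-D1), whereas vehicle mouse 1 was the lowest for 4 (Irf7, Ifit1, H2-K1 and H2-D1). Pair-fed mouse 5 was the lowest for B2m and Tap1. Without GDF15 mouse 6, 8 of the 36 pairs passed, among them all 6 MHC class I pairs. Over the 16 mice left out in turn, 4 to 11 pairs passed, and 3 to 6 of the MHC class I pairs did. The count was 4 without vehicle mouse 5 and also 4 without pair-fed mouse 5, with 3 MHC class I pairs each. B2m and H2-D1 stayed between 0.88 and 0.93, and Irf7 and Ifit1 between 0.78 and 0.87.

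The genes most like a member in this respect were taken by the highest r of their deviations over the 16 mice, as a description only. For Irf7 they were Nsmce2 (r = 0.86), Ppil3 (0.83), Zdhhc12 (0.83), Tbc1d20 (0.79) and Cmpk1 (0.79), none of which is on the list of interferon-stimulated genes. For B2m they were Slc39a10 (r = 0.78), Gbp7 (0.78), Cpeb4 (0.77), Vps16 (0.77) and Ppid (0.77). Gbp7, an interferon-inducible guanylate binding protein, is on that list, at 118 ± 13.0 normalized counts in vehicle mice, 108 ± 7.49 in GDF15 mice and 111 ± 25.0 in pair-fed mice.

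Other genes of the pathway were read from lists of 88 interferon-stimulated genes (ISGs), 28 genes of MHC class I presentation, 38 of interferon sensing and signalling, and 9 of MHC class II. The members are among the first and second of these lists. Of the ISGs 72 were tested, and their median log2 fold changes were -0.06, -0.03 and 0.02 in GDF15 against vehicle, pair-fed against vehicle and GDF15 against pair-fed. They were higher in 28, 26 and 40 of the 72 cases. The only called gene was Irgm2, an interferon-inducible GTPase, in GDF15 against pair-fed.

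Irgm2 was 221, 203, 253, 267 and 267 normalized counts in vehicle mice, 166 to 315 with a median of 195 in GDF15 mice, and 393, 267, 290, 369 and 377 in pair-fed mice. Genes called lower made up 0.144% of all tested genes in GDF15 against pair-fed. Irgm2 fell there with a log2 fold change of -0.69 ± 0.14 (limma adjusted p = 0.0322), and all 6 GDF15 mice lay below the pair-fed median. The groups overlapped because GDF15 mouse 6, the mouse that was highest for 6 members, stood at 315, above 2 of the pair-fed mice. Without that mouse the log2 fold change was -0.81. Against vehicle, Irgm2 was 0.48 ± 0.15 in pair-fed mice (limma adjusted p = 0.0849, under 0.6 in size) and -0.21 ± 0.14 in GDF15 mice. The B2m difference in GDF15 against pair-fed ran the other way.

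Irf1, a transcription factor induced by interferon gamma that acts on MHC class I genes, had an adjusted p under 0.1 in the same comparison but a smaller size. It was 131, 120, 124, 111 and 102 in vehicle mice, 123 to 172 with a median of 161 in GDF15 mice, and 110, 140, 115, 84.7 and 123 in pair-fed mice. The log2 fold change was 0.44 ± 0.12 for GDF15 against pair-fed (limma adjusted p = 0.0922) and 0.38 ± 0.12 for GDF15 against vehicle (limma adjusted p = 0.227). Of the GDF15 mice 5 lay above every vehicle and pair-fed mouse. In GDF15 against vehicle, Slfn5 at -0.23 ± 0.07 and Rsad2 (viperin) at -0.32 ± 0.14 completed the 3 ISGs with the smallest p, with limma adjusted p of 0.233 and 0.403.

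In pair-fed against vehicle no ISG was called. Oas2, an oligoadenylate synthetase that senses double-stranded RNA, came closest. Vehicle mice had 48.7, 48.9, 61.9, 44.2 and 56.2, pair-fed mice 29.7, 28.9, 35.1, 35.7 and 41.3, and GDF15 mice 40.8 to 49.9. The pair-fed and vehicle values did not overlap, as for 5.44% of all tested genes. The log2 fold change of -0.59 ± 0.14 (limma adjusted p = 0.0254) lay just under the size threshold. With each mouse left out it ran from -0.66 to -0.53, and Oas2 passed both thresholds without any of vehicle mice 1, 2 and 4 and pair-fed mice 4, 5 and 6, as it did with a pseudocount of 0.5 and with the replicate block. Ly6e was -0.20 ± 0.06 (limma adjusted p = 0.0764), and 3 ISGs in all had an adjusted p under 0.1, where 6.37% of all tested genes did.

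Among the genes of MHC class I presentation 25 were tested and 0 were called in the 3 comparisons by limma, with 1, 3 and 3 at an unadjusted p under 0.05, beside 11%, 18.9% and 13.2% of all tested genes. They were higher in 16, 7 and 19 cases, with medians of 0.07, -0.05 and 0.08. Beside B2m, the chaperones had the smallest p in GDF15 against pair-fed. Pdia3, of the peptide-loading complex, was 0.20 ± 0.06 and Canx (calnexin) 0.16 ± 0.06, with limma adjusted p of 0.148 and 0.225. Canx had an adjusted p under 0.1 in pair-fed against vehicle, at -0.23 ± 0.06 (limma adjusted p = 0.0472), from 1264 ± 63.8 in vehicle to 1078 ± 81.7 in pair-fed mice. H2-T22 (0.20 ± 0.09), Tapbp (0.13 ± 0.07) and Psme1 (-0.11 ± 0.07) had the smallest p in GDF15 against vehicle, with limma adjusted p of 0.412, 0.551 and 0.568. In pair-fed against vehicle H2-Q10 at -0.77 ± 0.30 and Tapbp at 0.17 ± 0.08 did not pass, with limma adjusted p of 0.168 and 0.252.

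The interferons themselves (Ifnb1, Ifna1, Ifna2, Ifna4 and Ifng) were among the 38 genes of the sensing and signalling list, and their own levels are not reported here. Of the sensing and signalling genes 31 of 38 were listed, 26 were tested and 0 were called by limma, with 7, 4 and 1 at an unadjusted p under 0.05, where 11%, 18.9% and 13.2% of all tested genes passed that limit. Socs1, the inhibitor that ends interferon signalling at the receptor, showed the widest contrast. It was 8.79, 9.69, 52.2, 61.4 and 36.2 normalized counts in vehicle mice, 3.88 to 7.94 with a median of 5.46 in GDF15 mice, and 15.16, 6.16, 2.61, 11.1 and 26.5 in pair-fed mice. Every GDF15 mouse lay below every vehicle mouse, but 3 vehicle mice were far above the other 2. Groups did not overlap for 1.65% of all tested genes in GDF15 against vehicle. Socs1 reached the minimum mean of 10 through the vehicle group (33.7, against 5.70 in GDF15 and 12.3 in pair-fed mice). The GDF15 values lay near 3 reads, which is 2.79 to 4.01 normalized counts in those libraries. The p-values of Socs1 below are therefore a description only. The log2 fold change of -2.02 ± 0.53 had a limma adjusted p of 0.128, and in pair-fed against vehicle it was -1.31 ± 0.56 (limma adjusted p = 0.21). Without vehicle mouse 1 the value for GDF15 against vehicle was -2.38 with a limma adjusted p of 0.0773, and without pair-fed mouse 4, which enters through the shared spread, the adjusted p was 0.0942.

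None of the other sensing genes was called. Traf3, an adaptor of type I interferon induction, was -0.44 ± 0.11 in pair-fed against vehicle (limma adjusted p = 0.0375) and -0.27 ± 0.11 in GDF15 against vehicle (limma adjusted p = 0.346). In the first comparison the groups narrowly missed an overlap, with values up to 325 in pair-fed and from 326 in vehicle mice. Groups did not overlap there for 5.44% of all tested genes. The vehicle mean of Traf3 was 404 ± 79.7, with mouse 3 at 539. Ticam1 was 0.41 ± 0.16 in GDF15 against vehicle and the phosphatase Ptpn2 was -0.24 ± 0.09 in pair-fed against vehicle, with limma adjusted p of 0.342 and 0.168. Tbk1 (-0.36 ± 0.14), Mavs (-0.14 ± 0.07) and Ptpn6 (1.06 ± 0.51) had the smallest p in GDF15 against pair-fed, with limma adjusted p between 0.283 and 0.392. Ptpn6 reached the minimum mean of 10 through the GDF15 group (17.9, against 7.66 in vehicle and 8.66 in pair-fed mice), where mouse 1 stood at 47.1. With each mouse left out its difference ran from 0.73, without GDF15 mouse 1, to 1.52, without pair-fed mouse 5. Of the MHC class II genes, which mark professional antigen-presenting cells, 6 were tested and 0 were called by limma, with 0, 1 and 0 at an unadjusted p under 0.05, against the same background shares. H2-Aa was 124 ± 22.2 in vehicle, 118 ± 13.3 in GDF15 and 97.5 ± 31.0 in pair-fed mice, and H2-Eb1 was 115 ± 44.5, 110 ± 13.5 and 86.7 ± 48.1. The other MHC class II genes with the smallest p were H2-DMb1 and H2-Ab1 (-0.14 ± 0.35 and 0.05 ± 0.25 in GDF15 against vehicle) and Cd74 (-0.24 ± 0.22 in pair-fed against vehicle and 0.22 ± 0.21 in GDF15 against pair-fed), all with limma adjusted p above 0.6. The pair-fed values rested much on single mice: with each mouse left out, pair-fed against vehicle ran from -0.39 to -0.065 for Cd74 and from -0.75 to -0.25 for H2-Eb1, smallest without pair-fed mouse 2. Cd74 in GDF15 against pair-fed ran from 0.054 to 0.38, also smallest without that mouse.

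**Figure D5:**
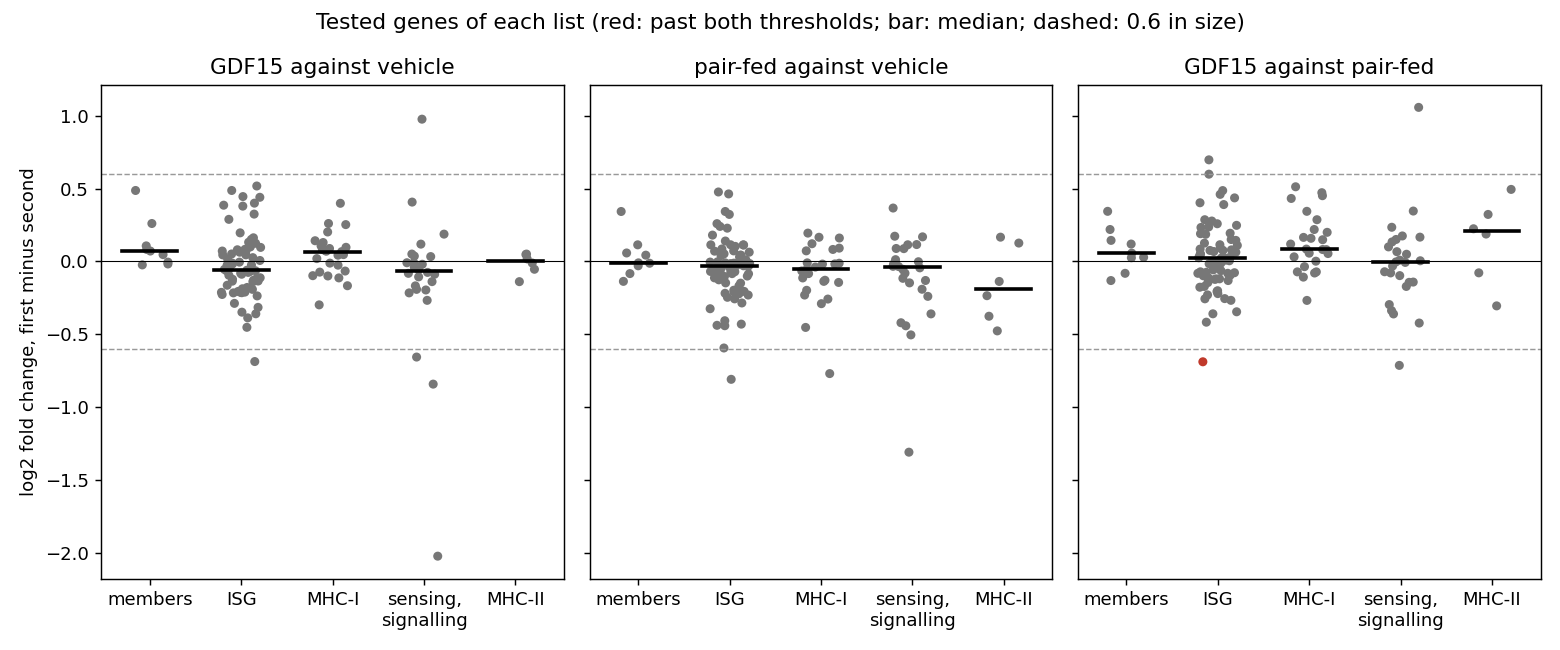
Log2 fold change (vertical axis, group named first minus group named second) of each tested gene of the 5 lists in the 3 comparisons, with the median as a bar and 0.6 in size as dashed lines. Medians lie within 0.21 of 0, and the single red point, past both thresholds, is Irgm2 at -0.69 in GDF15 against pair-fed.

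MHC class I and interferon-stimulated transcripts are carried by blood vessel and immune cells as well as by myofibres, and markers of those cells moved with the groups in part. The 16 macrophage and monocyte markers, all listed, summed to 401 to 692 normalized counts in vehicle mice, 382 to 782 in GDF15 mice and 299 to 773 in pair-fed mice. In GDF15 against pair-fed, where B2m was higher, 12 of the 13 tested markers were higher and 0 were called by limma, with 1 at an unadjusted p under 0.05. Over all tested genes 50.8% were higher there, 0.279% were called and 13.2% had an unadjusted p under 0.05. In GDF15 against vehicle 11 of the 13 were higher, with a median of 0.27, and in pair-fed against vehicle 6 were higher and 7 lower, with a median of -0.02. GDF15 mouse 6, the highest mouse for 6 members, also had the highest macrophage sum, 782, next to 773 in pair-fed mouse 6. All 6 fibroblast markers tested were likewise higher in GDF15 against pair-fed, with a median of 0.35, and none was called. Of the macrophage markers, Ptprc (CD45) was called lower in pair-fed against vehicle, where 0.49% of all tested genes were, at -0.97 (limma adjusted p = 0.0634), from 17.2 ± 4.36 to 8.75 ± 4.08, a gene singled out after its values were seen. That call was lost without any of vehicle mice 2, 3 and 5 and pair-fed mice 2 and 6, with limma adjusted p up to 0.155.

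The 9 endothelial markers summed to 6140 to 7218 in vehicle mice, 5323 to 6331 in GDF15 mice and 5452 to 6547 in pair-fed mice. Kdr, the VEGF receptor, likewise singled out afterwards, was called in GDF15 against vehicle at -0.66 (limma adjusted p = 0.00116), where 0.101% of all tested genes were called lower. It was -0.50 in pair-fed against vehicle (limma adjusted p = 0.00473), again with no overlap between the groups. In these comparisons 1.65% and 5.44% of all tested genes had no overlap. All 9 endothelial markers were lower in GDF15 against vehicle and 8 of 9 in pair-fed against vehicle. Against the members, the within-group deviations of the macrophage and endothelial sums gave 18 relations, none of which passed, with a lowest permutation adjusted p of 0.794 for r and 0.625 for rho. B2m and the macrophage sum gave r = 0.42 (permutation adjusted p = 0.794) and rho = 0.53 (permutation adjusted p = 0.625). Without the 2 mice farthest from the median of the macrophage sum, r was 0.66 for B2m, 0.53 for H2-D1 and 0.51 for H2-K1, with unadjusted permutation p of 0.00466, 0.0171 and 0.0451. Irf7 and the endothelial sum gave r = 0.59 in the same way (unadjusted permutation p = 0.0454). These relations were chosen after the values were seen, and the part of these cells in the B2m difference was not tested.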

How the data were processed

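RNA of 16 tibialis anterior muscles was sequenced with paired reads of 50 bases (NEBNext Ultra II Directional kit). The submitters' processing notes name Trim Galore, Salmon, DESeq2 and the build mm10. The authors deposited 1 table of log2 values for 14538 genes that has the form of DESeq2's variance-stabilising transformation, with a floor of 7.32, which compresses low values. These log2 values were transformed back to normalized counts. Low values of genes with a single transcript were whole multiples of 1 read in 94.4% to 97.9% of cases (within 0.1 read), but those of genes with over 4 transcripts in 20.4% to 27.2%, so no count model was fitted. Approximate depth was 11900039 to 15012378 reads in vehicle, 9482763 to 13846128 in GDF15 and 11805502 to 14762777 in pair-fed libraries. This depth sets the counting error, which weighs most on genes near the minimum.

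The 11841 genes that averaged 10 or more normalized counts were fitted as log2(normalized count + 1) by limma 3.58.1 (R 4.3.3) with an intensity trend, all 3 groups in 1 fit, and Benjamini-Hochberg adjustment. Fold changes of low genes are understated on this scale. A call needed an adjusted p below 0.1 together with a log2 difference larger than 0.6 either way. The fit and the correlations were tested on simulated data. Correlations and figures used Python 3.11.15 with pandas 2.3.3, numpy 2.4.6, scipy 1.17.1 and matplotlib 3.10.9. Levels per kilobase used transcript lengths of GENCODE vM21, which matched 14282 symbols. Groups came from the sample labels. Text names every member, every list gene past both thresholds or else the 3 with the smallest p in each list and comparison, and the 5 genes most like Irf7 and B2m. ISGs with an adjusted p under 0.1 alone, Ifit3b, Kdr, Ptprc, Myh1, Actn3, Ckm and Pvalb were named after their values were seen. The members and lists were chosen with earlier results of these data known. Alternatives were other pseudocounts and minimums, other normalizations and weights, 2-group fits, the deposited log2 values, other thresholds, a replicate block and each mouse left out.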

Additional observations from a re-analysis of the deposited data

Results flagged for a closer look

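In the 27 groups formed by 9 genes and 3 conditions, 1 held a mouse that stood apart by Dixon's criterion, and chance alone marks about 1 group in 20. It was H2-D1 in the pair-fed group, where mouse 2 had 1181 normalized counts and the other 4 mice lay between 1009 and 1048.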

How the results depend on the processing

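No alternative brought a member past the thresholds in any comparison, and the lowest limma adjusted p of a member over all settings was 0.126 (B2m in GDF15 against pair-fed, without GDF15 mouse 5). Over all genes, GDF15 against vehicle gave 36 called genes, but 9 with the deposited log2 values, 23 at an adjusted p under 0.05, 91 with no fold change minimum and 21 to 38 with each mouse left out. For pair-fed against vehicle the count of 97 became 17, 56, 754 and 60 to 157 in the same order, and for GDF15 against pair-fed 33 became 7, 18, 257 and 15 to 62. Mice of the same number were no more alike than others: the 14 same-numbered pairs correlated at -0.10 to 0.07, and the 71 other pairs at -0.11 to 0.19. Whether the numbers stand for matched mice cannot be told from these values. With the replicate number as a block GDF15 against vehicle gave 20 called genes, and 3 small differences changed sign (H2-Ab1 at -0.00158 in GDF15 against vehicle, Ifit3 at -0.0248 and Bst2 at -0.00238 in pair-fed against vehicle). Other differences near 0 also changed sign. In GDF15 against vehicle Isg15 was 0.0144 with a pseudocount of 5, 0.0325 with library weights and 0.00679 with the deposited log2 values, where Ifit3 was 0.000366. In pair-fed against vehicle Isg15 was 0.000198 with the deposited log2 values. In GDF15 against pair-fed Irf7 was -0.000999 with library weights and -0.000397 with quantile normalization, where Isg15 was -0.0457. With each mouse left out, differences in GDF15 against vehicle ranged from -0.055 to 0.19 for Irf7, -0.17 to 0.20 for Isg15, -0.15 to 0.13 for Ifit3, -0.068 to 0.041 for Bst2, -0.016 to 0.076 for H2-K1, -0.12 to 0.033 for H2-Aa, -0.11 to 0.16 for H2-Ab1 and -0.37 to 0.053 for H2-DMb1. In pair-fed against vehicle they ranged from -0.083 to 0.16 for Irf7, -0.15 to 0.21 for Isg15, -0.073 to 0.045 for H2-K1, -0.055 to 0.021 for H2-D1 and -0.19 to 0.077 for Tap1. In GDF15 against pair-fed they ranged from -0.081 to 0.090 for Irf7, -0.22 to 0.23 for Isg15, -0.26 to 0.012 for Ifit3 and -0.0056 to 0.085 for H2-K1. Ifit1 in GDF15 against vehicle stayed at 0.36 to 0.59 and B2m in GDF15 against pair-fed at 0.17 to 0.26. The call of Irgm2 was lost only with the deposited log2 values, at -0.37 on their compressed scale, and held with each mouse left out (-0.81 to -0.62). Of the 36 pairs, 9 passed by Pearson's r, 10 by Spearman's rho, 7 without the 2 farthest mice and 4 to 11 with each mouse left out, the last chosen after seeing the data. With the longest transcript, vehicle means per kilobase were 621 for H2-K1 and 509 for H2-D1. The cause of these shifts was not tested. Depth limits Isg15 most, and 5 or 6 mice per group left intervals past 0.6 for Isg15, Ifit1 and Tap1.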

Other observations

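Other cell type markers, given as values, varied widely between single mice. The 6 adipocyte markers summed to 85.8 to 402 normalized counts in vehicle, 50.8 to 1193 in GDF15 and 216 to 600 in pair-fed mice, and none was called. Red blood cell transcripts, with 3 of 5 markers listed, summed to 260 to 3146, 838 to 2556 and 79.9 to 3743. The 6 fibroblast markers summed to 2950 to 5712, 3920 to 6788 and 2971 to 5979, again with none called, and 5 of the 6 were lower in pair-fed against vehicle. Neutrophil and plasmacytoid dendritic cell markers, with 4 of 7 listed and 1 tested, summed to 555 to 828 over all mice, highest in GDF15 mouse 6 and next in pair-fed mouse 2 at 723. The other listed markers each averaged below the minimum of 10 normalized counts. This sum therefore rested almost wholly on 1 gene and cannot stand for these cells. Of the 10 myofibre markers 8 were higher in pair-fed against vehicle (median 0.13), and Actn3, Ckm and Pvalb had an adjusted p under 0.1 without being called. Of all tested genes 6.37% had an adjusted p under 0.1. Myh1, a fast myosin heavy chain, was called lower there, where 0.49% of all tested genes were, at -0.68 ± 0.14 (limma adjusted p = 0.0123). In GDF15 against pair-fed 8 of the 10 were lower (median -0.09). Only Actn3 had an adjusted p under 0.1 in that comparison, beside 2.17% of all tested genes.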
